A study of Homo sapiens with 15 samples.

Results

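Interferon-stimulated genes are the genes that a cell transcribes more when interferon reaches it, and most of them encode antiviral proteins. The 51 described here are a named list, found by their symbols among the 60649 genes of each count file, and all 51 had an entry. They were read in HSC-5, a line of human cutaneous squamous cell carcinoma cells, in 15 RNA-seq libraries of 5 conditions with 3 libraries each. The conditions were the control sgNeg, the guides sgPRMT5-1 and sgPRMT5-2 against the arginine methyltransferase PRMT5, and the guides sgWDR77-1 and sgWDR77-2 against WDR77, which binds PRMT5 in the methylosome. The question was where the loss of either partner leaves these genes at different levels.

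By genotype, sgNeg is WT, both PRMT5 guides are PRMT5 Knockout and both WDR77 guides are WDR77 Knockout, and the treatment of every library, sgNeg included, is given as Neomycin. The study describes sgNeg as an empty vector control. Pooled over guides, the knockout libraries are called PRMT5KO (6 libraries) and WDR77KO (6 libraries). The methods of the study call the knockouts complete and name a check by qRT-PCR, while the design text speaks of a knock-down by guide RNA. No clone is named for any condition, and the labels do not give the share of cells with an edited gene. The labels call the 3 libraries of a condition biological replicates and do not say whether they came from separate cultures or infections, so the p-values measure the spread between these libraries. In the pooled comparisons both guides of a gene form a single group, so that spread also holds differences between guides. The 6 libraries of a knockout are thus not 6 independent knockouts. Levels are counts per 1e+06 counted reads (CPM) after scaling by TMM, which sets libraries to a shared trimmed mean of log ratios, and tests are limma voom fits over all genes with a mean normalized count of at least 3. A gene is called higher or lower where its adjusted p is under 0.05.

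Type I interferons bind IFNAR1 and IFNAR2 at the cell surface, where the kinases JAK1 and TYK2 signal to the factor ISGF3, which holds STAT2 and IRF9 and binds the interferon-stimulated response element of its target genes. Interferon gamma acts through its own receptor and a different element, the gamma-activated site, and the targets of both routes overlap. Epithelial tumour cells often carry a low, steady level of these transcripts without added interferon, and the proteins sense viral RNA, cleave it, block its translation, trap virions at the membrane or feed back on the signal.

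PRMT5 transcripts stood at 59.1, 49.6 and 67.8 CPM in sgNeg, at 33, 35.8 and 41.4 in sgPRMT5-1 and at 44.1, 44.5 and 39.4 in sgPRMT5-2, so all 6 knockout libraries lay below the 3 of sgNeg while the mRNA remained present. In PRMT5KO against sgNeg the log2 fold change of PRMT5 was -0.57 (SE 0.119, limma voom adjusted p 0.00875). The WDR77 guides left PRMT5 at 54.5, 64.2 and 54.4 CPM in sgWDR77-1 and 79.9, 65.2 and 64.4 in sgWDR77-2, values that overlapped those of sgNeg. WDR77 transcripts stood at 125, 114 and 119 CPM in sgNeg, at 30.8, 52 and 53.3 in sgWDR77-1 and at 26.6, 24.9 and 22 in sgWDR77-2. All 6 WDR77KO libraries lay below sgNeg, and the log2 fold change was -1.86 (SE 0.216, limma voom adjusted p 9.01e-05). WDR77 in the PRMT5 guides was 134, 119 and 156 CPM in sgPRMT5-1 and 126, 129.9 and 119 in sgPRMT5-2, within or above the sgNeg values. An mRNA level does not give the protein, and an edited gene can still be transcribed. By Western blot, in HSC-5 among other lines, the study reports that depletion of either partner also lowered the protein of the other. PRMT5KO and WDR77KO thus name the gene that was targeted, and the protein in these libraries was not measured here.

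The cells carried the transcripts of a squamous epithelium. Of 10 squamous markers 9 had a mean count of at least 3, their summed level ran from 3200 to 4480 CPM over the 15 libraries, and KRT17 was the most abundant at a mean of 928 CPM. Leukocytes, which themselves respond to interferon, would bring the 10 leukocyte markers. These summed to between 0.907 CPM in sgNeg replicate 3 and 3.83 CPM in sgWDR77-1 replicate 3. CD3E, TYROBP and IRF8 were at 0 in every library, and ITGAM was the most abundant. Fibroblast markers summed to between 62.5 CPM in sgPRMT5-2 replicate 1 and 259.6 CPM in sgNeg replicate 1, most of it FBLN1, with COL1A2 and POSTN at 0. Each library held between 5146711 and 6730428 reads on genes, and between 17995 and 20399 genes with a count.

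Several libraries stood apart before any test. Summed over the members, sgWDR77-1 replicate 3 reached 7275 CPM, against 5275 and 5361 in replicates 1 and 2 of that guide. In sgWDR77-1 replicate 3, 46 members lay above their sgNeg mean, against 34 and 41 in replicates 1 and 2 and 41 in sgNeg replicate 1. For 10 members its distance to the nearest other WDR77KO library made up 0.627 to 0.873 of the whole WDR77KO range, MX1, MX2, OAS2 and IFI44L among them, so the counts of member calls that use WDR77KO, and the called members shown by library or by range, are also given without it. Libraries sgNeg replicate 2, sgWDR77-1 replicate 2 and sgWDR77-1 replicate 3 also had the highest shares of reads that the counting assigned to no feature, 7.16%, 6.04% and 5.70%. The median library had 3.88%. Between libraries of the same condition, the chi-square per degree of freedom was largest for sgWDR77-1 replicate 1, at 12.5 and 17.7 against replicates 2 and 3. Between replicates 2 and 3 of that guide it was 3.21. The part of these differences in the results was not tested.

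The summed level of the members set sgPRMT5-2 and both WDR77 guides apart from sgNeg. It was 4927, 4294 and 4522 CPM in sgNeg and 4621, 4416 and 4243 CPM in sgPRMT5-1, which overlapped. In sgPRMT5-2 it was 3328, 3284 and 3280 CPM, below every other library, and in the WDR77 guides it was 5275, 5361 and 7275 CPM in sgWDR77-1 and 5388, 5828 and 5505 CPM in sgWDR77-2, above every library of sgNeg. The sum is carried by the abundant members, but the median over members of the log2 ratio to the sgNeg mean separated the same conditions, running from -0.68 in sgPRMT5-2 replicate 1 to 0.68 in sgWDR77-1 replicate 3. In bulk RNA, fewer cells that express a gene and less of its RNA per cell cannot be told apart, here and in each result that follows.

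**Figure D1:**
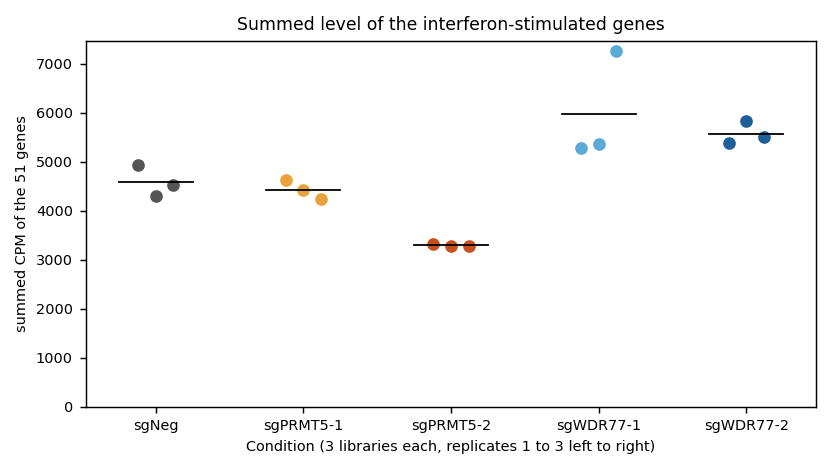
Summed CPM of the members in each of the 15 libraries, by condition, with a line at the mean. The 3 sgPRMT5-2 libraries sit between 3280 and 3328 CPM, and the 6 WDR77 libraries between 5275 and 7275 CPM, above the sgNeg libraries at 4294 to 4927 CPM.

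Between the knockouts, interferon-stimulated genes were lower in the PRMT5 libraries. Of 50 members tested, 39 were lower in PRMT5KO than in WDR77KO and 0 higher (limma voom; at an unadjusted p under 0.05, 43 members passed, all lower, and limma-trend also called 39 lower and 0 higher), where 6.01% of all 14008 genes tested were called lower. The log2 difference was negative for all 50 members, with a median of -0.63 where the median of all genes tested was 0.02. With the guides entered as separate groups and averaged, 44 members were lower and 0 higher. That fit called 25.99% of all genes in either direction. For 20 members every PRMT5KO library lay below every WDR77KO library, against 1.80% of all genes tested, and leaving out sgWDR77-1 replicate 3 this also held for 20. With sgWDR77-1 replicate 3 left out 32 members were called lower, and without any 1 other library between 29 and 41, the lowest without sgPRMT5-2 replicate 2, with 14.01% of all genes called in either direction in the main fit and 8.09% and 6.48% without those 2 libraries. Of the 39 calls, 29 remained under every alternative in which the gene was tested, short of the fold threshold; GBP6, 1 of the 29, was not tested at a minimum mean count of 10.

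**Figure D2:**
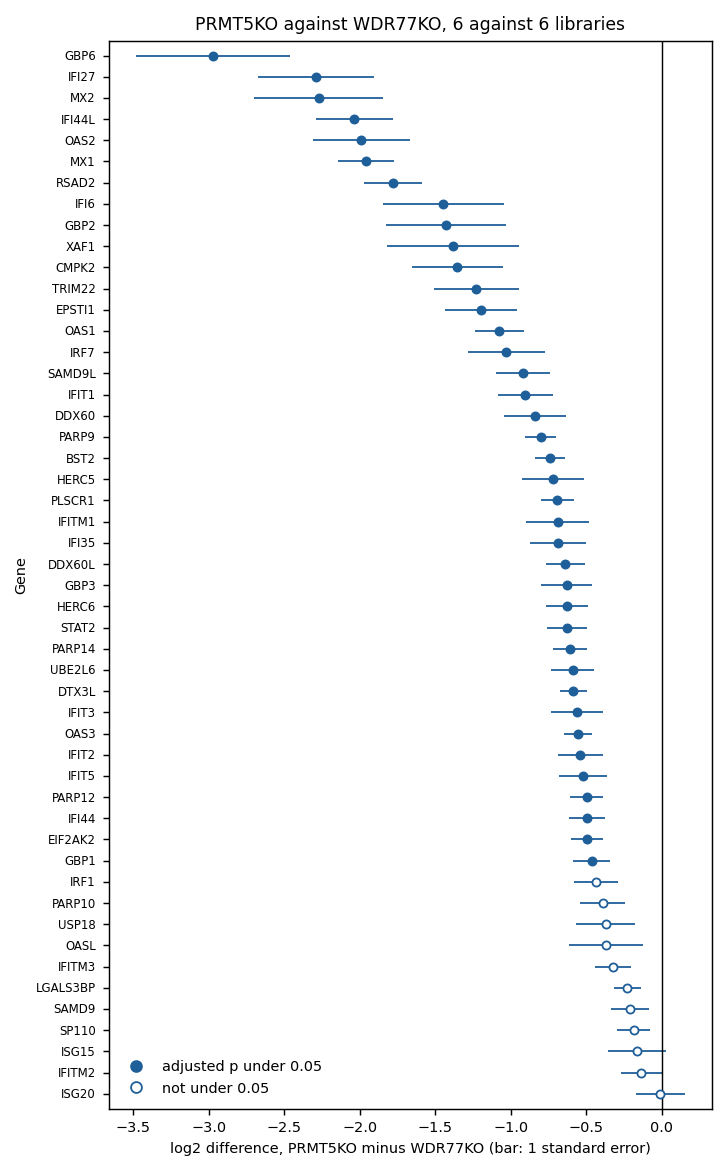
Log2 difference, PRMT5KO minus WDR77KO, of each of the 50 tested members in order of size, with bars of 1 standard error and filled points for an adjusted p under 0.05. All 50 points lie below 0, from GBP6 at -2.97 to ISG20 at -0.01, and 39 are filled.

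The heat map of all libraries shows these levels member by member. In sgPRMT5-2 replicate 2 only 4 members stood above their sgNeg mean, and in sgWDR77-1 replicate 3 46 did. The control libraries ranged widely on this measure, with 41, 15 and 14 members in sgNeg replicates 1, 2 and 3. ISG20 was above sgNeg in every guide. In sgPRMT5-2 38 of 50 members tested were called lower than in sgNeg, and IFI27 and BST2 were among those that were not.

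**Figure D3:**
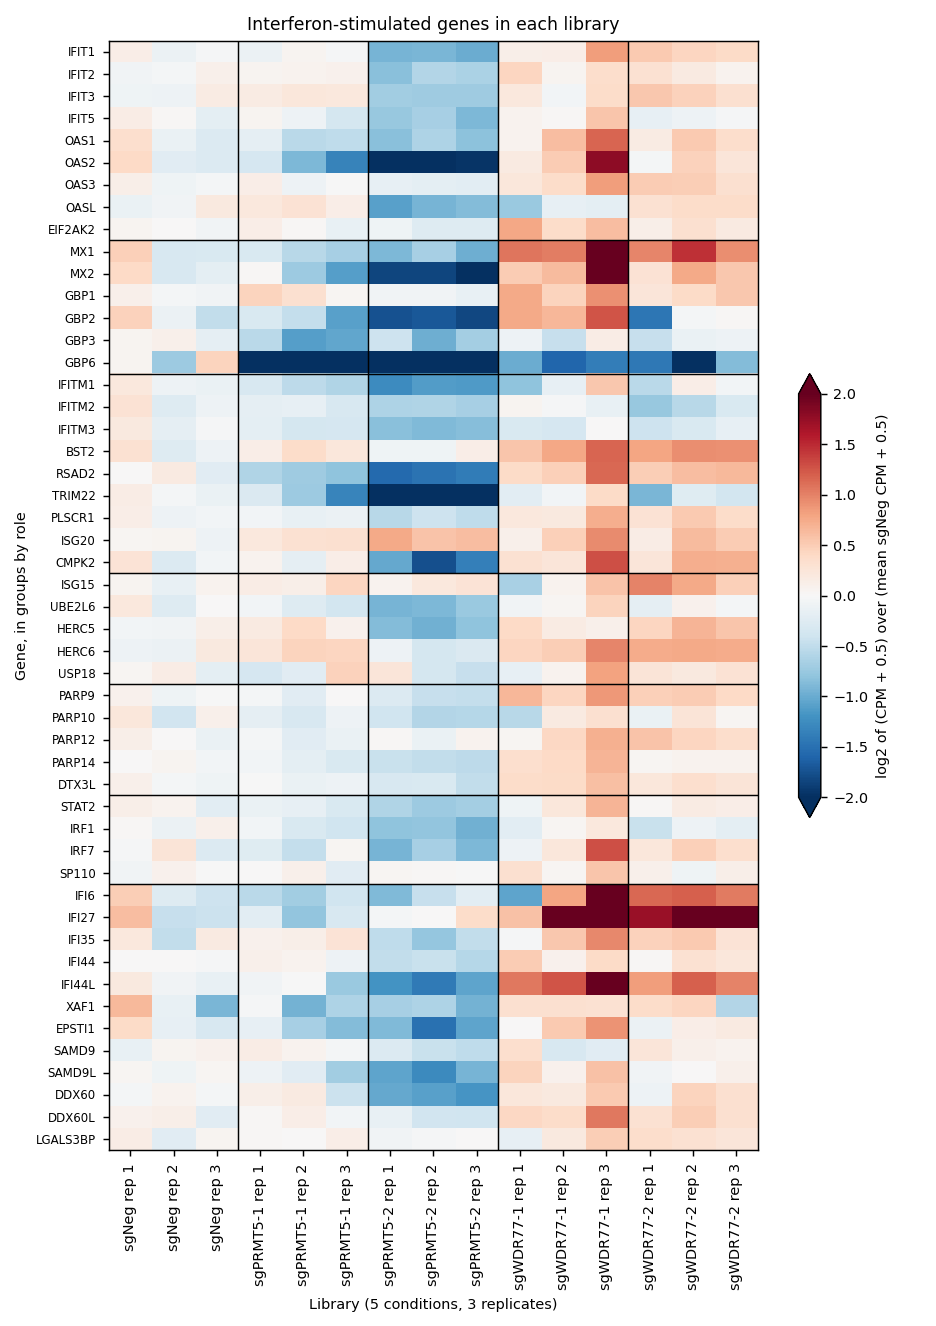
Log2 ratio of CPM to the sgNeg mean, with 0.5 CPM added to both, of each of the 50 members with reads (lines, grouped by role) in each library (columns, by condition), with the colour scale ending at -2 and 2. The median over members runs from -0.68 in sgPRMT5-2 replicate 1 to 0.68 in sgWDR77-1 replicate 3, and GBP6 is low in all knockout libraries.

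Against sgNeg, fewer members passed in the PRMT5 libraries. In PRMT5KO 18 of 49 members tested were called lower than in sgNeg and 0 higher (limma voom; 29 passed an unadjusted p under 0.05, and limma-trend called 17 lower and 0 higher), where 8.30% of all 14069 genes tested were called lower. The median log2 difference over the members was -0.38 and that over all genes tested -0.01. This count depended on single libraries: 2 members were called without sgNeg replicate 1, 7 without sgNeg replicate 2, and 8, 11 and 10 without replicates 1, 2 and 3 of sgPRMT5-2. With the guides entered as separate groups and averaged, 34 were called lower and 1 higher. The calls over all genes moved as well: in either direction they were 17.04% of genes in the main fit, 3.43% without sgNeg replicate 1, 4.80% without sgNeg replicate 2, 9.32% to 9.92% without a sgPRMT5-2 library and 30.9% with separate groups. Of the 18 calls, those of GBP6 and RSAD2 remained under every alternative tried, short of the fold threshold.

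In WDR77KO, 8 members were called higher than in sgNeg among 50 tested, where 0.839% of all genes tested were called higher, and GBP6 was called lower, where the share was 2.55%. The 8 were MX1, IFI44L, IFI27, GBP1, OAS3, BST2, HERC6 and PARP9. Over the members the median log2 difference was 0.37, and over all genes tested 0.00. Without sgWDR77-1 replicate 3 the same 9 members were called, so the library with the highest levels did not decide them. Leaving out other libraries changed the count: 4, 2 and 2 members were called without replicates 1, 2 and 3 of sgNeg. It was 5 without sgWDR77-1 replicate 2 and 17 without sgWDR77-1 replicate 1. Over all genes the share called in either direction was 3.39%, and in these fits it was 1.51%, 1.85%, 1.41%, 2.31% and 4.80%. The median over the members was 0.42, 0.33 and 0.31 without sgNeg replicates 1, 2 and 3. Only BST2 kept its call under every alternative tried, short of the fold threshold. Both pooled comparisons use the same 3 sgNeg libraries, so their differences are not independent of each other, and PRMT5KO against WDR77KO does not use sgNeg.

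Of the 39 members lower in PRMT5KO than in WDR77KO, 16 were also called lower in PRMT5KO than in sgNeg and 8 were called higher in WDR77KO than in sgNeg. MX1 and IFI44L are in both counts, and 17 of the 39 passed in neither pooled comparison with sgNeg. By single guide, 16 of these 17 were called against sgNeg, 14 of them in sgPRMT5-2, 2 in sgWDR77-1, 6 in sgWDR77-2 and 0 in sgPRMT5-1, some in more than 1 guide. Leaving out sgWDR77-1 replicate 3, 14 of the 32 members called lower between the knockouts were also lower in PRMT5KO than in sgNeg, 8 were higher in WDR77KO than in sgNeg and 12 passed in neither. The values of MX1 and IFI44L stand first because they alone passed the threshold against sgNeg in both pooled knockouts in opposite directions. MX1 stood at 75, 43.2 and 43.9 CPM in sgNeg, at 43.7, 36.5 and 33.9 in sgPRMT5-1 and at 28.9, 34 and 27.1 in sgPRMT5-2. Its values were 114, 111 and 239 CPM in sgWDR77-1 and 107, 149.98 and 103 in sgWDR77-2. MX1 encodes a GTPase that traps the nucleocapsids of RNA viruses, and its values in all 6 WDR77KO libraries lay above those of every other library, while the PRMT5KO values ran from the lowest of all up to the lower 2 of sgNeg. Its log2 difference was -1.96 (SE 0.186, limma voom adjusted p 7.05e-06) in PRMT5KO against WDR77KO, -0.65 (SE 0.175, limma voom adjusted p 0.0247) in PRMT5KO against sgNeg and 1.32 (SE 0.248, limma voom adjusted p 0.00630) in WDR77KO against sgNeg. Without sgWDR77-1 replicate 3 the first was -1.80 (limma voom adjusted p 5.54e-07) and the last 1.15 (limma voom adjusted p 0.00178). The MX1 call of PRMT5KO against sgNeg ended without sgNeg replicate 1 or sgPRMT5-2 replicate 1 (adjusted p 0.132 and 0.0532). The MX1 call of WDR77KO against sgNeg ended without sgNeg replicate 2 or 3 (adjusted p 0.0546 and 0.0603).

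IFI44L stood at 57.4, 47.5 and 45.3 CPM in sgNeg, at 47.5, 50.1 and 29.8 in sgPRMT5-1 and at 21.6, 18.5 and 23.9 in sgPRMT5-2. Its values were 105, 120.3 and 253 CPM in sgWDR77-1 and 90.1, 115 and 99.9 in sgWDR77-2. The function of IFI44L, a paralog of IFI44, is less settled than that of MX1, and its transcripts were above all sgNeg libraries in all 6 WDR77KO libraries, with sgWDR77-1 replicate 3 far above the rest, while the sgPRMT5-1 values overlapped sgNeg and the sgPRMT5-2 values lay below it. The log2 difference of IFI44L was -2.04 (SE 0.256, limma voom adjusted p 0.000135) in PRMT5KO against WDR77KO, -0.76 (SE 0.248, limma voom adjusted p 0.0494) in PRMT5KO against sgNeg and 1.29 (SE 0.255, limma voom adjusted p 0.00911) in WDR77KO against sgNeg. Leaving out sgWDR77-1 replicate 3 gave -1.84 (limma voom adjusted p 8.02e-05) for the first and 1.08 (limma voom adjusted p 0.000224) for the last. The IFI44L call of PRMT5KO against sgNeg ended without sgNeg replicate 1, 2 or 3, sgPRMT5-1 replicate 3 or sgPRMT5-2 replicate 1, 2 or 3 (adjusted p 0.0759 to 0.182), and under upper-quartile scaling (0.0552), with a minimum mean count of 10 (0.0504) and with limma-trend (0.0618). The IFI44L call of WDR77KO against sgNeg ended without sgNeg replicate 2 or 3 (adjusted p 0.0546 and 0.0686).

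**Figure D4:**
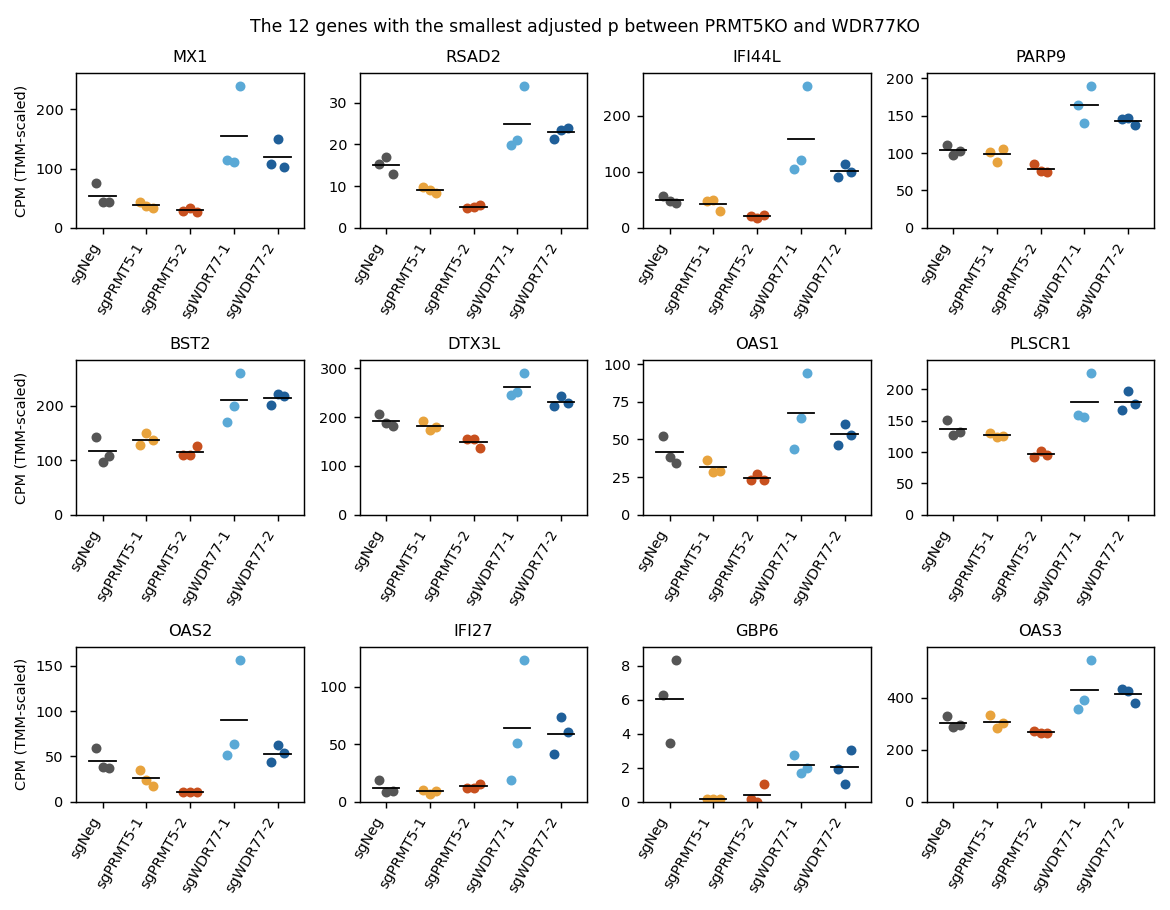
CPM in each library of the 12 members with the smallest adjusted p between PRMT5KO and WDR77KO, by condition, with 1 point per library, a line at the mean and axes that start at 0. MX1 and IFI44L are above all sgNeg points in every WDR77 library, and the highest points of both, 239 and 253 CPM, are sgWDR77-1 replicate 3.

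The promoters of the members, called or not, were searched for the core of the element that ISGF3 binds, written GAAA-NN-GAAA, where N is any base. The gamma-activated site, written TTCNNNGAA, was searched for as well. Both searches covered both strands of the 300 bases from 250 before to 50 after the start of each gene (RefSeq, GRCh38.p14). Windows were found for 41 of the 51 members. GAAA-NN-GAAA occurred in 27 of the 41 (65.9%), against 3.57% of all 35116 windows, and TTCNNNGAA in 12 of the 41 (29.3%), against 7.66%. Among members called lower in PRMT5KO than in WDR77KO 22 of 33 windows held GAAA-NN-GAAA (66.7%), and among the other members 5 of 8 (62.5%). The windows are printed for the 2 members called in opposite directions against sgNeg (MX1, IFI44L), the member with the largest WDR77KO rise (IFI27), the member whose rise kept its call under every alternative (BST2) and the member the system is named for (ISG15), which was not called in the pooled comparisons. Capitals mark the matches to GAAA-NN-GAAA or, on the other strand, to its reverse complement. The MX1 window is chr21:41420308-41420607 (+ strand), that of IFI44L chr1:78620198-78620497 (+), that of IFI27 chr14:94110486-94110785 (+), that of BST2 chr19:17405581-17405880 (- strand) and that of ISG15 chr1:1013247-1013546 (+). MX1 holds 1 match and each of the others 2; those of BST2 overlap each other, as do those of ISG15, and those of IFI27 lie on opposite strands.
MX1: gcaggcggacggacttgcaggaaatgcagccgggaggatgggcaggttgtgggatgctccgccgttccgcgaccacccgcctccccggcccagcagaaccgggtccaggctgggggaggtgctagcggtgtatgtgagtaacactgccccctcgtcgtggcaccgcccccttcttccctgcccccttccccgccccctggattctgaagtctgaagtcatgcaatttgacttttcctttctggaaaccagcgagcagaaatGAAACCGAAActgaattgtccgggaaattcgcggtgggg
IFI44L: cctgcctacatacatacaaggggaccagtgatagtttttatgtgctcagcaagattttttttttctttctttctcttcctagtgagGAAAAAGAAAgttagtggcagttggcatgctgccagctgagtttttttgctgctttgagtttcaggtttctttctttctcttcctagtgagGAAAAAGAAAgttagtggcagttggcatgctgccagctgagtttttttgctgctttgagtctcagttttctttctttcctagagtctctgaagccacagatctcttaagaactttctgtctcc
IFI27: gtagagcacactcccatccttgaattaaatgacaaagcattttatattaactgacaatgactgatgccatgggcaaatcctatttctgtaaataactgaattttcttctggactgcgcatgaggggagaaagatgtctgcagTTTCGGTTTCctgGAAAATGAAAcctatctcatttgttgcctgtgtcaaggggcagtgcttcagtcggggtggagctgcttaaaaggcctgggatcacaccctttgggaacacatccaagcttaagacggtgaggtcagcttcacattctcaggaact
BST2: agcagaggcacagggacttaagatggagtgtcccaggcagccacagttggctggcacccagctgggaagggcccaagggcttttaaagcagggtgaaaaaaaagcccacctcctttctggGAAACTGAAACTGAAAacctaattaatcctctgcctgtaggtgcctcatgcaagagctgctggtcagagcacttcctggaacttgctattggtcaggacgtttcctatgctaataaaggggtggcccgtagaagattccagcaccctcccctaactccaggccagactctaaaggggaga
ISG15: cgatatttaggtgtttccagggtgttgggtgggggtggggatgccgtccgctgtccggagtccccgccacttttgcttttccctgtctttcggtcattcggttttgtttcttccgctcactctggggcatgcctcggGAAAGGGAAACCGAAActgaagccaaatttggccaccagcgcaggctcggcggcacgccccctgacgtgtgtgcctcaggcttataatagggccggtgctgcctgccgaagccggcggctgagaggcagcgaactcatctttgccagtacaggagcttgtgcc

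The IFIT proteins bind viral RNA ends and block their translation, the OAS enzymes make 2-5A, which switches on RNase L, and EIF2AK2 (PKR) halts translation when it meets double-stranded RNA. Of these 9 members 8 were lower in PRMT5KO than in WDR77KO, with a median log2 difference of -0.55 over the 9, and OASL was not called at -0.37 (adjusted p 0.312) by limma voom. The count fell to 5 of 9 without sgWDR77-1 replicate 3, and also without any 1 of the sgPRMT5-2 libraries. OAS2 stood at 59.3, 38.5 and 37.2 CPM in sgNeg, at 35.4, 23.9 and 17.5 in sgPRMT5-1 and at 10.4, 10.5 and 11.2 in sgPRMT5-2. Its values were 51.2, 63.9 and 157 CPM in sgWDR77-1 and 43.5, 62.4 and 53.5 in sgWDR77-2. OAS2 was low in all 6 PRMT5KO libraries, none of which reached the lowest sgNeg value, and sgWDR77-1 replicate 3 was far above the other WDR77KO libraries, which overlapped sgNeg. Its log2 difference was -1.99 (SE 0.318, limma voom adjusted p 0.00109) between the knockouts, and -1.75 (limma voom adjusted p 0.000722) without that library. Against sgNeg OAS2 was at -1.44 (adjusted p 0.00805) in PRMT5KO and at 0.56 (adjusted p 0.392) in WDR77KO. The OAS2 call in PRMT5KO against sgNeg ended without sgNeg replicate 1 (adjusted p 0.0595).

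OAS1 ranged from 23.2 to 36.7 with a median of 27.9 CPM in PRMT5KO, and from 43.8 to 94.2 with a median of 56.8 in WDR77KO, with 52.5, 38.1 and 34.5 in sgNeg. The 2 knockouts did not overlap, and sgNeg overlapped both. OAS1 was at -1.07 (adjusted p 0.000812) between the knockouts and at -0.58 (adjusted p 0.0230) in PRMT5KO against sgNeg by limma voom. OAS3 ranged from 263 to 332 with a median of 277 CPM in PRMT5KO and from 355 to 545 with a median of 409 in WDR77KO, with 329.8, 286 and 296 in sgNeg. For OAS3 the WDR77KO libraries stood above all others, with a log2 difference of -0.55 (adjusted p 0.00188) between the knockouts, 0.46 (adjusted p 0.0468) in WDR77KO against sgNeg and -0.10 (adjusted p 0.388) in PRMT5KO against sgNeg. With sgWDR77-1 replicate 3 left out, OAS1 was at -0.95 (limma voom adjusted p 0.000746) and OAS3 at -0.49 (limma voom adjusted p 0.00225) between the knockouts, and OAS3 at 0.39 (limma voom adjusted p 0.0451) in WDR77KO against sgNeg. The OAS1 call against sgNeg ended without sgNeg replicate 1 or 2 or sgPRMT5-2 replicate 1 (adjusted p 0.0501 to 0.132). The OAS3 call against sgNeg ended without sgNeg replicate 1, 2 or 3, sgWDR77-1 replicate 2 or sgWDR77-2 replicate 1, 2 or 3 (adjusted p 0.0562 to 0.217), and with library totals alone (0.0672) and with limma-trend (0.0516).

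The 4 IFIT genes and EIF2AK2 passed between the knockouts and in neither pooled comparison with sgNeg. By limma voom their log2 differences in PRMT5KO against WDR77KO were -0.90 (adjusted p 0.00524) for IFIT1, -0.54 (adjusted p 0.0239) for IFIT2, -0.56 (adjusted p 0.0392) for IFIT3, -0.52 (adjusted p 0.0376) for IFIT5 and -0.49 (adjusted p 0.00752) for EIF2AK2. All PRMT5KO values of IFIT1 lay below those of WDR77KO, while the knockouts overlapped for the other 4. The IFIT2 call between the knockouts ended without sgPRMT5-2 replicate 1, 2 or 3 or sgWDR77-1 replicate 3 (adjusted p 0.0510 to 0.0597). The IFIT3 call between the knockouts ended without sgPRMT5-2 replicate 1, 2 or 3, sgWDR77-1 replicate 3 or sgWDR77-2 replicate 2 or 3 (adjusted p 0.0623 to 0.0973). The IFIT5 call between the knockouts ended without sgPRMT5-1 replicate 3, sgPRMT5-2 replicate 1, 2 or 3, sgWDR77-1 replicate 1, 2 or 3 or sgWDR77-2 replicate 3 (adjusted p 0.0521 to 0.0929), and with no count filter (0.0504). The members of the IFIT and OAS families resemble each other in sequence, and reads that fit several genes were not counted, so part of each gene's signal may be missing.

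Both MX and all 4 GBP genes encode GTPases of the dynamin superfamily, the GBPs acting on the membranes of pathogen vacuoles, and all 6 were lower in PRMT5KO than in WDR77KO, with a median log2 difference of -1.69, and 5 of the 6 without sgWDR77-1 replicate 3. MX2, which blocks the nuclear entry of retroviruses, ranged from 1.35 to 8.10 with a median of 2.65 CPM in PRMT5KO and from 9.82 to 40.9 with a median of 12.1 in WDR77KO, with 10.7, 6.25 and 6.89 in sgNeg. The knockouts did not overlap, and the highest value was again sgWDR77-1 replicate 3. MX2 was at -2.27 (SE 0.427, limma voom adjusted p 0.00348) between the knockouts, -1.99 (limma voom adjusted p 0.00157) without that library, and -1.38 (SE 0.385, limma voom adjusted p 0.0280) in PRMT5KO against sgNeg. The MX2 call against sgNeg ended without sgNeg replicate 1, 2 or 3 or sgPRMT5-2 replicate 1, 2 or 3 (adjusted p 0.0532 to 0.134). GBP2 stood at 38.8, 25.8 and 20 CPM in sgNeg, at 22.6, 20 and 13 in sgPRMT5-1 and at 8.08, 8.33 and 7.61 in sgPRMT5-2. Its values were 48.2, 45 and 68.4 CPM in sgWDR77-1 and 10, 27.6 and 28.6 in sgWDR77-2. GBP2 was lowest in sgPRMT5-2 and highest in sgWDR77-1, all of whose libraries lay above sgNeg, while sgWDR77-2 overlapped sgNeg. Its log2 difference was -1.43 (SE 0.397, limma voom adjusted p 0.0250) between the knockouts, -1.23 (limma voom adjusted p 0.0540) without sgWDR77-1 replicate 3, and -1.18 (SE 0.301, limma voom adjusted p 0.0197) in PRMT5KO against sgNeg. The GBP2 call between the knockouts ended without sgPRMT5-2 replicate 1, 2 or 3 or sgWDR77-1 replicate 1, 2 or 3 (adjusted p 0.0508 to 0.0696). The GBP2 call against sgNeg ended without sgNeg replicate 1 or 2 (adjusted p 0.115 and 0.0678).

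GBP6 was the only member called in the same direction in both knockouts, and its counts were low. It had 37, 21 and 46 reads in sgNeg, 1, 1 and 1 in sgPRMT5-1, 1, 0 and 6 in sgPRMT5-2, 15, 9 and 11 in sgWDR77-1 and 10, 6 and 17 in sgWDR77-2. Every knockout library had a lower GBP6 CPM than every sgNeg library, and the PRMT5KO libraries were at or near 0 with sgPRMT5-2 replicate 3 above the others of that knockout. By limma voom the fitted log2 difference of GBP6 was -4.45 (adjusted p 0.00102) in PRMT5KO against sgNeg, -1.46 (adjusted p 0.0268) in WDR77KO against sgNeg and -2.97 (adjusted p 0.00187) between the knockouts. With so few reads these folds are imprecise and depend on the count that voom adds before the logarithm. GBP6 without sgWDR77-1 replicate 3 was at -1.47 (limma voom adjusted p 0.0458) in WDR77KO against sgNeg and at -2.98 (limma voom adjusted p 0.00394) between the knockouts. The GBP6 call in WDR77KO against sgNeg ended without sgNeg replicate 1 or 3, sgWDR77-1 replicate 2 or sgWDR77-2 replicate 2 (adjusted p 0.0595 to 0.156). GBP1 was at -0.46 (adjusted p 0.0194) between the knockouts and at 0.55 (adjusted p 0.0361) in WDR77KO against sgNeg, and GBP3 at -0.63 (adjusted p 0.0210) and, in PRMT5KO against sgNeg, at -0.83 (adjusted p 0.0100). The GBP1 call in WDR77KO against sgNeg ended without sgNeg replicate 1, 2 or 3, sgWDR77-1 replicate 2 or sgWDR77-2 replicate 3 (adjusted p 0.0596 to 0.189). The GBP3 call between the knockouts ended without sgPRMT5-1 replicate 3 or sgPRMT5-2 replicate 2 (adjusted p 0.0501 and 0.0523). The GBP3 call in PRMT5KO against sgNeg ended without sgNeg replicate 1 or 2 (adjusted p 0.0559 and 0.0559).

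The membrane and restriction proteins held 6 of 9 members lower in PRMT5KO than in WDR77KO, with a median log2 difference of -0.69, and IFITM2, IFITM3 and ISG20 were not called. Without sgWDR77-1 replicate 3 it was 5 of 9, IFITM1 having dropped out. RSAD2 encodes viperin, which makes a chain-terminating nucleotide from CTP. RSAD2 stood at 15.2, 17.1 and 12.9 CPM in sgNeg, at 9.78, 9.0 and 8.39 in sgPRMT5-1 and at 4.82, 5.10 and 5.41 in sgPRMT5-2. Its values were 19.8, 21.1 and 33.9 CPM in sgWDR77-1 and 21.4, 23.3 and 23.9 in sgWDR77-2. Every RSAD2 value in PRMT5KO lay below every sgNeg value, and every value in WDR77KO above it, with sgWDR77-1 replicate 3 the highest. The log2 difference of RSAD2 was -1.78 (SE 0.192, limma voom adjusted p 2.85e-05) between the knockouts, -1.69 (limma voom adjusted p 5.50e-05) without that library, -1.15 (SE 0.214, limma voom adjusted p 0.00563) in PRMT5KO against sgNeg and 0.65 (SE 0.183, limma voom adjusted p 0.0667) in WDR77KO against sgNeg. CMPK2, its neighbour on the chromosome and a nucleotide kinase of mitochondria, was at -1.35 (adjusted p 0.00920) between the knockouts, with no overlap of their libraries, and at -1.22 (limma voom adjusted p 0.0222) without sgWDR77-1 replicate 3. RSAD2 and CMPK2 overlap on opposite strands, and the strand setting of the counts is not given in the sources used here. The labels name a stranded mRNA kit and the methods of the study a TruSeq kit not described as stranded, so whether these counts used strand is open.

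TRIM22 stood at 46.9, 41.3 and 38.5 CPM in sgNeg, at 34.5, 25.3 and 16.6 in sgPRMT5-1 and at 9.33, 9.69 and 9.31 in sgPRMT5-2. Its values were 36.6, 40.5 and 54.9 CPM in sgWDR77-1 and 22.1, 35.5 and 32.6 in sgWDR77-2. TRIM22 encodes a ubiquitin ligase that restricts viral transcription, and its values were below sgNeg in all 6 PRMT5KO libraries, least so in sgPRMT5-1, overlapped sgNeg in sgWDR77-1 and were below it in sgWDR77-2. It was at -1.47 (SE 0.301, limma voom adjusted p 0.00831) in PRMT5KO against sgNeg and at -1.23 (SE 0.282, limma voom adjusted p 0.0102) between the knockouts, where single libraries overlapped, or -1.12 (limma voom adjusted p 0.0268) without sgWDR77-1 replicate 3. The TRIM22 call against sgNeg ended without sgNeg replicate 1 (adjusted p 0.0519). BST2 (tetherin), which holds budding virions at the cell surface, ranged from 109 to 150.4 with a median of 127 CPM in PRMT5KO and from 171 to 260.0 with a median of 209 in WDR77KO, with 143, 97 and 108 in sgNeg. The WDR77KO libraries all stood above the others, and PRMT5KO overlapped sgNeg. BST2 without sgWDR77-1 replicate 3 was at 0.81 (limma voom adjusted p 0.00226) in WDR77KO against sgNeg and at -0.69 (limma voom adjusted p 0.000761) between the knockouts. On all libraries it was at 0.88 (SE 0.138, limma voom adjusted p 0.00146) in WDR77KO against sgNeg, -0.74 (SE 0.101, limma voom adjusted p 0.000301) between the knockouts and 0.12 (adjusted p 0.533) in PRMT5KO against sgNeg. PLSCR1, a phospholipid scramblase, ranged from 92.7 to 131 with a median of 113 CPM in PRMT5KO and from 157 to 226 with a median of 172 in WDR77KO, with 150.3, 127 and 132 in sgNeg. The knockouts did not overlap for PLSCR1, at -0.69 (adjusted p 0.000965), and neither passed against sgNeg, at -0.31 (adjusted p 0.0742) for PRMT5KO and 0.39 (adjusted p 0.0959) for WDR77KO, and without sgWDR77-1 replicate 3 PLSCR1 was at -0.63 (limma voom adjusted p 0.00232) between the knockouts.

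The IFITM proteins sit in endosomal membranes and hinder the fusion of enveloped viruses. IFITM1 was lower in PRMT5KO than in sgNeg at -0.84 (adjusted p 0.00988) and lower than in WDR77KO at -0.69 (adjusted p 0.0333) by limma voom. IFITM3 was lower than in sgNeg at -0.58 (adjusted p 0.0187), and its difference between the knockouts, -0.32 (adjusted p 0.0765), did not pass. For both genes all 6 PRMT5KO libraries lay below sgNeg. The IFITM1 call against sgNeg ended without sgNeg replicate 1 (adjusted p 0.0663). The IFITM1 call between the knockouts ended without sgPRMT5-2 replicate 1, 2 or 3, sgWDR77-1 replicate 2 or 3 or sgWDR77-2 replicate 2 or 3 (adjusted p 0.0613 to 0.0876). The IFITM3 call against sgNeg ended without sgNeg replicate 1 (adjusted p 0.0989). IFITM1, IFITM2 and IFITM3 are close paralogs side by side on a chromosome, and reads shared by them were not counted. ISG20, an exonuclease, went its own way: every library of all 4 guides lay above sgNeg (7.79, 7.89 and 7.07 CPM), at 8.86, 9.51 and 9.59 in sgPRMT5-1, 13.2, 11.6 and 11.8 in sgPRMT5-2, 8.13, 10.7 and 15.1 in sgWDR77-1 and 8.47, 12 and 11 in sgWDR77-2, and neither pooled knockout passed against sgNeg (0.47, adjusted p 0.0821 for PRMT5KO and 0.49, adjusted p 0.273 for WDR77KO).

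ISG15 is a ubiquitin-like protein that UBE2L6 and the ligases HERC5 and, in mice, HERC6 attach to others and USP18 takes off again. Of these 5 members UBE2L6, HERC5 and HERC6 were lower in PRMT5KO than in WDR77KO, and ISG15 and USP18 were not called, with the same 3 calls when sgWDR77-1 replicate 3 was left out. ISG15 stood at 61.6, 53.2 and 62.4 CPM in sgNeg, at 65.7, 64.2 and 79.4 in sgPRMT5-1, at 62.2, 68.5 and 71.6 in sgPRMT5-2, at 37.7, 62 and 87.6 in sgWDR77-1 and at 118, 99.8 and 82.6 in sgWDR77-2. Its sgWDR77-2 libraries lay above sgNeg, and those of sgWDR77-1 overlapped it. By limma voom HERC6 was at -0.63 (adjusted p 0.00905) between the knockouts and at 0.70 (adjusted p 0.00666) in WDR77KO against sgNeg, where all 6 libraries lay above all 3. UBE2L6 was at -0.59 (adjusted p 0.0128) between the knockouts and at -0.54 (adjusted p 0.0461) in PRMT5KO against sgNeg, and HERC5 at -0.72 (adjusted p 0.0279) between the knockouts. The HERC6 call against sgNeg ended without sgNeg replicate 1 or 2 (adjusted p 0.0588 and 0.0526). The UBE2L6 call against sgNeg ended without sgNeg replicate 1, 2 or 3, sgPRMT5-1 replicate 3 or sgPRMT5-2 replicate 1, 2 or 3 (adjusted p 0.0515 to 0.190). The HERC5 call between the knockouts ended without sgPRMT5-2 replicate 1, 2 or 3 or sgWDR77-2 replicate 2 or 3 (adjusted p 0.0536 to 0.0751).

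PARP9 and DTX3L form a complex that joins ADP-ribose and ubiquitin transfer, and their genes share a bidirectional promoter. PARP9 ranged from 74.6 to 105 with a median of 87.1 CPM in PRMT5KO and from 137 to 189 with a median of 146 in WDR77KO, with 111, 97.6 and 103 in sgNeg. DTX3L ranged from 136 to 191 with a median of 165 CPM in PRMT5KO and from 224 to 290.1 with a median of 244 in WDR77KO, with 206, 187 and 181 in sgNeg. For both genes all WDR77KO libraries lay above all libraries of the other conditions. PARP9 was at -0.80 (SE 0.102, limma voom adjusted p 0.000151) between the knockouts and 0.56 (SE 0.114, limma voom adjusted p 0.0108) in WDR77KO against sgNeg. DTX3L was at -0.59 (SE 0.0893, limma voom adjusted p 0.000800) between the knockouts and did not pass in WDR77KO against sgNeg, 0.36 (adjusted p 0.0647). Leaving out sgWDR77-1 replicate 3 gave -0.75 (limma voom adjusted p 0.000309) for PARP9 and -0.55 (limma voom adjusted p 0.00180) for DTX3L between the knockouts, and 0.50 (limma voom adjusted p 0.0120) for PARP9 in WDR77KO against sgNeg. The PARP9 call against sgNeg ended without sgNeg replicate 2 or 3 (adjusted p 0.0738 and 0.0715). The mono-ADP-ribosyltransferase PARP14 was at -0.61 (adjusted p 0.00302) between the knockouts and -0.35 (adjusted p 0.0246) in PRMT5KO against sgNeg, and PARP12 at -0.50 (adjusted p 0.00857) between the knockouts, while PARP10 was not called. The PARP14 call against sgNeg ended without sgNeg replicate 1 or 2 or sgPRMT5-2 replicate 1, 2 or 3 (adjusted p 0.0502 to 0.103).

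Among the factors that drive the programme, STAT2 and IRF7 were lower in PRMT5KO than in WDR77KO, and IRF1 and SP110 were not called. STAT2, the subunit that gives ISGF3 its activating domain, stood at 106, 103 and 84 CPM in sgNeg, at 88.8, 87.6 and 78.9 in sgPRMT5-1, at 64.4, 59 and 60.7 in sgPRMT5-2, at 92.2, 115 and 156 in sgWDR77-1 and at 99.4, 109 and 107 in sgWDR77-2. The knockouts did not overlap, and the highest value was sgWDR77-1 replicate 3. STAT2 was at -0.63 (adjusted p 0.00614) between the knockouts, -0.54 (limma voom adjusted p 0.0123) without that library, and -0.44 (adjusted p 0.0386) in PRMT5KO against sgNeg. IRF7, the factor that amplifies interferon alpha transcription, was at -1.03 (adjusted p 0.0145) between the knockouts, and IRF1, an early factor of the interferon gamma response, at -0.56 (adjusted p 0.0313) in PRMT5KO against sgNeg and at -0.43 (adjusted p 0.0541) between the knockouts. The STAT2 call against sgNeg ended without sgNeg replicate 1 or 2 or sgPRMT5-2 replicate 1, 2 or 3 (adjusted p 0.0747 to 0.159). The IRF1 call against sgNeg ended without sgNeg replicate 1, 2 or 3 or sgPRMT5-2 replicate 1, 2 or 3 (adjusted p 0.0592 to 0.103). IRF9, the DNA-binding subunit of ISGF3, was listed at 0 in all 15 libraries, as were its neighbour RNF31 and a readthrough gene at that place, so its level could not be read from these counts.

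Of the 12 other interferon-inducible members 10 were lower in PRMT5KO than in WDR77KO, with a median log2 difference of -0.88, and SAMD9 and LGALS3BP were not called. When sgWDR77-1 replicate 3 was left out, 8 of the 12 were called. IFI27 encodes a small hydrophobic protein of membranes. IFI27 stood at 18.8, 8.71 and 8.89 CPM in sgNeg, at 10.4, 6.79 and 9.59 in sgPRMT5-1 and at 11.8, 12.2 and 15.7 in sgPRMT5-2. Its values were 18.5, 51.5 and 124 CPM in sgWDR77-1 and 41.2, 73.7 and 61 in sgWDR77-2. The IFI27 values of all 6 PRMT5KO libraries lay below those of WDR77KO, in which sgWDR77-2 was above all sgNeg libraries and sgWDR77-1 spread widely and overlapped them. Its log2 difference was -2.29 (SE 0.384, limma voom adjusted p 0.00158) between the knockouts and 2.21 (SE 0.537, limma voom adjusted p 0.0316) in WDR77KO against sgNeg, while PRMT5KO was at -0.09 (adjusted p 0.835) against sgNeg. Without sgWDR77-1 replicate 3 the first was -2.06 (limma voom adjusted p 0.00180) and the second 1.97 (limma voom adjusted p 0.0246). The IFI27 call against sgNeg ended without sgNeg replicate 1, 2 or 3, sgWDR77-1 replicate 2 or sgWDR77-2 replicate 2 or 3 (adjusted p 0.0527 to 0.156). IFI6, its paralog, was at -1.45 (adjusted p 0.0242) between the knockouts, with overlapping libraries. The IFI6 call between the knockouts ended without sgPRMT5-2 replicate 1 or 2 (adjusted p 0.0623 and 0.0505).

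SAMD9L, a restriction factor of poxviruses, was at -0.92 (adjusted p 0.00430) between the knockouts and -0.73 (adjusted p 0.0261) in PRMT5KO against sgNeg by limma voom, with all 6 libraries below sgNeg. EPSTI1, a gene of epithelial and stromal cells, was at -1.20 (adjusted p 0.00480) and -0.89 (adjusted p 0.0339) in the same comparisons. The helicase genes DDX60 and DDX60L were at -0.84 (adjusted p 0.0137) and -0.64 (adjusted p 0.00542) between the knockouts, IFI44 at -0.50 (adjusted p 0.0136), IFI35 at -0.69 (adjusted p 0.0216) and XAF1 at -1.38 (adjusted p 0.0423). The SAMD9L call against sgNeg ended without sgNeg replicate 1, 2 or 3 or sgPRMT5-2 replicate 1 or 3 (adjusted p 0.0534 to 0.0972). The EPSTI1 call against sgNeg ended without sgNeg replicate 1 or 2, sgPRMT5-1 replicate 3 or sgPRMT5-2 replicate 1, 2 or 3 (adjusted p 0.0569 to 0.168). The IFI35 call between the knockouts ended without sgPRMT5-2 replicate 1, 2 or 3 or sgWDR77-1 replicate 3 (adjusted p 0.0506 to 0.0588). The XAF1 call between the knockouts ended without sgPRMT5-1 replicate 2 or 3, sgPRMT5-2 replicate 1, 2 or 3, sgWDR77-1 replicate 1, 2 or 3 or sgWDR77-2 replicate 2 (adjusted p 0.0599 to 0.0955), and with no count filter (0.0635). XAF1, an inhibitor of the caspase inhibitor XIAP, had at most 1.24 CPM in WDR77KO, so its fold is imprecise, and it was under the count filter in PRMT5KO against sgNeg.

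The 2 guides of PRMT5 differed from each other. Against sgNeg, sgPRMT5-1 had 6 of 50 members called lower and 0 higher (limma voom; 19 passed an unadjusted p under 0.05, and limma-trend called 6 lower and 0 higher), where 2.24% of all genes tested were called lower. The 6 were OAS2 (-0.84, adjusted p 0.0232), GBP3 (-0.93, adjusted p 0.0189), GBP6 (-4.54, adjusted p 0.00104), IFITM1 (-0.49, adjusted p 0.0314), RSAD2 (-0.74, adjusted p 0.0308) and TRIM22 (-0.78, adjusted p 0.0169). Only 1 was called without sgNeg replicate 1, and 1 without replicate 2 or replicate 3 of sgPRMT5-1, while the share of all genes called fell from 3.78% to 1.71%, 1.49% and 2.09%. In sgPRMT5-2 38 members were called lower, where 19.3% of all genes tested were, and ISG20 was called higher (0.67, adjusted p 0.00497), where 20.9% were. For 38 members all 3 sgPRMT5-2 libraries lay below all 3 of sgNeg, against 24.1% of all genes tested. The median log2 difference over the members was -0.14 for sgPRMT5-1 and -0.70 for sgPRMT5-2, and over all genes tested 0.00 for both. For sgPRMT5-1 it was -0.08 without sgNeg replicate 1 and -0.21 without sgNeg replicate 3. Members with the lowest differences in sgPRMT5-2 after GBP6 were TRIM22 (-2.16, adjusted p 1.30e-09), MX2 (-2.15, adjusted p 7.38e-05) and OAS2 (-2.04, adjusted p 9.93e-08).

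Tested directly, 35 of 48 members were lower in sgPRMT5-2 than in sgPRMT5-1, where 9.30% of all 13973 genes tested were called lower, and IFI27 was higher at 0.57 (adjusted p 0.0391) by limma voom, where 9.94% were. The lower members with the largest differences were MX2 (-1.56, adjusted p 0.00674), CMPK2 (-1.50, adjusted p 0.000449), TRIM22 (-1.37, adjusted p 0.000204), OAS2 (-1.21, adjusted p 0.000433), GBP2 (-1.17, adjusted p 0.000442), OASL (-1.17, adjusted p 5.79e-09), HERC5 (-1.11, adjusted p 1.47e-07) and DDX60 (-1.06, adjusted p 2.50e-06), each at least 1 in size. The other 27 were IFIT1, IFIT2, IFIT3, IFIT5, OAS1, OAS3, MX1, GBP1, IFITM1, IFITM2, IFITM3, BST2, RSAD2, PLSCR1, UBE2L6, HERC6, PARP9, PARP14, DTX3L, STAT2, IRF1, IFI35, IFI44, IFI44L, SAMD9, SAMD9L and DDX60L. Of the 8, TRIM22 and OAS2 were also called lower in sgPRMT5-1 than in sgNeg. With all 15 libraries in a single fit, 19 members passed, all lower, and the share of all genes called fell from 19.2% to 7.79%. PRMT5 itself, at 0.23 (adjusted p 0.146), was not called between the guides, with 33, 35.8 and 41.4 CPM in sgPRMT5-1 and 44.1, 44.5 and 39.4 in sgPRMT5-2. Why the guides differ was not tested.

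**Figure D5:**
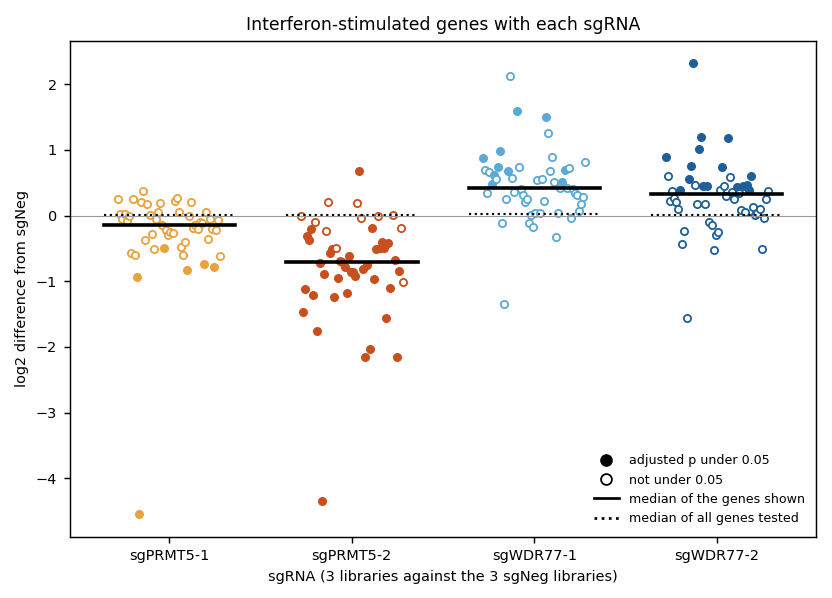
Log2 difference from sgNeg of each tested member (1 point each, filled for an adjusted p under 0.05), by guide, with solid lines at the median of the members and dotted lines at that of all genes tested. The median over members is -0.14 for sgPRMT5-1, -0.70 for sgPRMT5-2, 0.42 for sgWDR77-1 and 0.32 for sgWDR77-2, and all 4 use the same sgNeg libraries.

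The 2 guides of WDR77 were not told apart. In sgWDR77-1 10 members were called higher than in sgNeg, where 1.04% of all genes tested were, and for 19 members all its libraries lay above sgNeg, against 10.7% of all genes tested. The 10 were MX1 (1.50, adjusted p 0.0148), IFI44L (1.59, adjusted p 0.00810), GBP2 (0.99, adjusted p 0.0374), BST2 (0.88, adjusted p 0.0172), GBP1 (0.74, adjusted p 0.0140), PARP9 (0.69, adjusted p 0.0169), HERC6 (0.67, adjusted p 0.0477), EIF2AK2 (0.61, adjusted p 0.0247), PARP14 (0.51, adjusted p 0.0451) and DTX3L (0.48, adjusted p 0.0458). Without sgWDR77-1 replicate 3 there were 7, without sgWDR77-1 replicate 1 24, without sgNeg replicate 1 4, and without sgNeg replicate 2 or 3 there were 0 by limma voom, where 17 and 18 passed an unadjusted p under 0.05; limma-trend on all libraries called 11. Of all genes 2.71% were called in the main fit, 7.02% without sgWDR77-1 replicate 1, and 0.90%, 0.999% and 0.393% without sgNeg replicates 1, 2 and 3. In sgWDR77-2 16 members were called higher, where 1.90% of all genes tested were, and for 25 members all its libraries lay above sgNeg, against 12.9%. The 16 were IFIT1, IFIT3, OAS3, MX1, GBP1, BST2, RSAD2, PLSCR1, ISG15, HERC5, HERC6, PARP9, PARP12, IFI6, IFI27 and IFI44L. The largest of these differences were IFI27 (2.32, adjusted p 0.000154), IFI6 (1.19, adjusted p 0.00125), MX1 (1.17, adjusted p 0.00160) and IFI44L (1.01, adjusted p 0.000160), and without sgWDR77-2 replicate 2 there were 10 calls, with 2.08% of all genes called in place of 4.97%. Between sgWDR77-2 and sgWDR77-1 0 of 50 members passed (limma voom; 11 passed an unadjusted p under 0.05, and limma-trend called 0), where 0.121% of all genes tested passed in either direction. Without sgWDR77-1 replicate 1, 3 members passed between them. A p above the threshold does not show that these guides act alike: ISG15, called in sgWDR77-2 (0.74, adjusted p 0.00295) and not in sgWDR77-1 (0.03, adjusted p 0.960), differed between them by 0.74 (adjusted p 0.268), and GBP2, called in sgWDR77-1 and not in sgWDR77-2 (-0.44, adjusted p 0.465), by -1.40 (adjusted p 0.145).

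Members differed widely in level. Per kilobase of exon, the highest in sgNeg were LGALS3BP, a secreted glycoprotein, at 181 CPM per kb, IFITM3 at 144, BST2 at 105, IFI44 at 77.0 and ISG15 at 68.2. Of these 5 BST2 and IFI44 were called lower in PRMT5KO than in WDR77KO, and LGALS3BP lay at -0.23 (adjusted p 0.0917) by limma voom in that comparison. At the other end were MX2 at 0.545 and XAF1 at 0.119 CPM per kb. GBP6 and XAF1 were under the count filter between the PRMT5 guides. The exon length is the union over the transcripts of a gene, so a gene whose cells use a short transcript is read too low on this scale.

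Around the members, the rest of the pathway was read from lists of its other genes. Over all genes tested, 14.01% were called in either direction in PRMT5KO against WDR77KO. Against sgNeg the share was 17.04% in PRMT5KO and 3.39% in WDR77KO. None of 10 interferon ligand genes had enough reads to be tested in the pooled comparisons, so whether the cells made interferon could not be read at this depth. All 6 receptor genes were tested, and IFNGR1, a chain of the interferon gamma receptor, was lower in PRMT5KO than in WDR77KO, at -0.27 (adjusted p 0.0370) by limma voom. Among the JAK, STAT and IRF genes tested outside the members, STAT3, which carries the signals of interleukin 6 and related cytokines, was higher in PRMT5KO than in sgNeg, at 0.31 (adjusted p 0.0151). The IFNGR1 call between the knockouts ended without sgPRMT5-1 replicate 3, sgPRMT5-2 replicate 1, 2 or 3, sgWDR77-1 replicate 2 or 3 or sgWDR77-2 replicate 2 or 3 (adjusted p 0.0597 to 0.0845), and with no count filter (0.0503). The STAT3 call against sgNeg ended without sgNeg replicate 2 or 3 (adjusted p 0.0960 and 0.0556).

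Of 5 negative regulators, the phosphatase gene PTPN6 was lower between the knockouts, at -0.26 (adjusted p 0.0283) by limma voom, and PIAS1, a SUMO ligase, was lower in PRMT5KO than in sgNeg, at -0.30 (adjusted p 0.0492). Of 11 sensors and adaptors tested, the RNA sensor genes IFIH1 (MDA5) and DHX58 (LGP2) were lower in PRMT5KO than in WDR77KO, at -0.79 (adjusted p 0.000779) and -0.82 (adjusted p 0.0230). IFIH1 was also higher in WDR77KO than in sgNeg, at 0.59 (adjusted p 0.0245). The DNA sensor CGAS and the kinase TBK1 were higher in PRMT5KO than in sgNeg and not called between the knockouts, at 0.27 (limma voom adjusted p 0.0290) and 0.28 (limma voom adjusted p 0.0291). In PRMT5KO against sgNeg 1 of the 5 negative regulators and 2 of the 11 sensors and adaptors were called. These counts were near the share of all genes called there, 17.04%. The PTPN6 call between the knockouts ended without sgPRMT5-1 replicate 3, sgPRMT5-2 replicate 1 or sgWDR77-1 replicate 2 (adjusted p 0.0530 to 0.0598), and with no count filter (0.10). The PIAS1 call against sgNeg ended without sgNeg replicate 1, 2 or 3, sgPRMT5-1 replicate 3 or sgPRMT5-2 replicate 1, 2 or 3 (adjusted p 0.0542 to 0.140), and under upper-quartile scaling (0.0597), with no count filter (0.0972) and with all 15 libraries in one fit (0.0668). The DHX58 call between the knockouts ended without sgPRMT5-2 replicate 1, 2 or 3 or sgWDR77-1 replicate 2 or 3 (adjusted p 0.0524 to 0.0666). The IFIH1 call against sgNeg ended without sgNeg replicate 1, 2 or 3 (adjusted p 0.0505 to 0.161). The CGAS call against sgNeg ended without sgNeg replicate 1 or 2 or sgPRMT5-2 replicate 1, 2 or 3 (adjusted p 0.0570 to 0.124), and with library totals alone (0.0647). The TBK1 call against sgNeg ended without sgNeg replicate 1, 2 or 3 or sgPRMT5-2 replicate 1, 2 or 3 (adjusted p 0.0541 to 0.124), and with library totals alone (0.0667).

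Of 24 further interferon-inducible genes, 19 were tested between the knockouts and 5 were lower in PRMT5KO: TNFSF10 (TRAIL), -1.11 (adjusted p 0.00815), the immunoproteasome subunit PSMB8, -0.50 (adjusted p 0.0219), TRIM14, -0.49 (adjusted p 0.0102), APOL1, -0.45 (adjusted p 0.0254), and SP100, -0.30 (adjusted p 0.0166), all by limma voom. Against sgNeg 21 were tested in PRMT5KO, where TNFSF10 (-1.11, adjusted p 0.0151), PSMB9 (-0.76, adjusted p 0.0231) and PSMB8 (-0.58, adjusted p 0.0334) were lower and CD274, which encodes the checkpoint ligand PD-L1, was higher (0.84, adjusted p 0.0297). In WDR77KO against sgNeg SP100, of the nuclear bodies, was higher (0.49, limma voom adjusted p 0.0396). Over all genes tested, 6.01% were called lower between the knockouts. Against sgNeg 17.04% were called in either direction in PRMT5KO and 3.39% in WDR77KO. The PSMB8 call between the knockouts ended without sgPRMT5-2 replicate 1, 2 or 3 (adjusted p 0.0545 to 0.0583). The APOL1 call between the knockouts ended without sgPRMT5-2 replicate 1, 2 or 3 or sgWDR77-1 replicate 2 or 3 (adjusted p 0.0534 to 0.0647). The TNFSF10 call against sgNeg ended without sgNeg replicate 1 (adjusted p 0.0917). The PSMB9 call against sgNeg ended without sgNeg replicate 1, 2 or 3 (adjusted p 0.0521 to 0.111). The PSMB8 call against sgNeg ended without sgNeg replicate 1, 2 or 3 or sgPRMT5-2 replicate 1, 2 or 3 (adjusted p 0.0596 to 0.149). The CD274 call against sgNeg ended without sgNeg replicate 1, 2 or 3 or sgPRMT5-2 replicate 1 or 2 (adjusted p 0.0502 to 0.123). The SP100 call against sgNeg ended without sgNeg replicate 2 or 3, sgWDR77-1 replicate 2 or 3 or sgWDR77-2 replicate 2 or 3 (adjusted p 0.0693 to 0.273), and with library totals alone (0.0519) and with no count filter (0.0518). The medians of the log2 differences between the knockouts were -0.10 for the receptors, -0.12 for the JAK, STAT and IRF genes, -0.09 for the negative regulators, -0.23 for the sensors and -0.24 for these inducible genes, where the members stood at -0.63.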

How the data were processed

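mRNA libraries of HSC-5 cells, 15 in all, were sequenced as single-end reads. According to the submitters' processing notes and the paper, alignment was by STAR (hg38) and counting per gene by htseq-count, and the files deposited by the authors hold whole-number counts that are not normalized; the notes give no tool versions, those in the paper's methods are not repeated here, the labels name a stranded library kit and the paper another TruSeq kit, and the annotation release and strand setting are not given in the sources used here. The unit of the deposited files was recorded as other, because they are tab-separated while their names announce commas. Each library held 5146711 to 6730428 reads on genes. A further 2.75% to 7.16% of its reads were assigned to no feature, 7.09% to 7.93% were ambiguous and 9.49% to 13.1% aligned to several places. The authors' use of DESeq2 was not repeated.

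Libraries were grouped by the guide and replicate in their titles. TMM factors (log-ratio trim 0.3, mean-level trim 0.05) scaled the libraries, genes with a mean normalized count of at least 3 in the libraries compared were tested with limma voom (limma 3.58.1, R 4.3.3), and two-sided p-values were adjusted by Benjamini-Hochberg over all genes tested. The fit and its calls were tested on simulated counts with 200 genes changed. The simulation held no differences between guides and no outlying library, so it does not show how the fits perform on these libraries. Comparisons were PRMT5KO against WDR77KO, each against sgNeg, each guide against sgNeg, and the guides of a gene against each other. Exon lengths came from GENCODE release 44 and figures from matplotlib 3.10.9 under Python 3.11.15. The 66 pathway genes and 30 marker genes listed all had an entry in the files, and 1 of the pathway genes is not reported here.

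Members and gene lists were chosen with earlier results of these data known. Named genes were members past an adjusted p of 0.05 in a pooled comparison or between the guides of a gene. Per-library values were given for the 12 members with the smallest adjusted p between PRMT5KO and WDR77KO, for those past the threshold with opposite signs against sgNeg, and for those past it against sgNeg whose log2 fold change was 1 or more in size. The 5 members highest per length in sgNeg, members under the filter and pathway genes past the threshold were also named. Values of ISG15, ISG20 and STAT2 by library, and the members named for a single guide, were added after their values were seen.

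Alternatives were RLE and upper-quartile scaling, library totals alone, no filter on low counts, a minimum mean count of 10, replicate number as a block, all 15 libraries in a single fit, limma-trend (prior count 2), a log2 fold change of 1 or more in size, the guides as separate groups averaged in the pooled comparisons, and leaving out each library.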

Additional observations from a re-analysis of the deposited data

Results flagged for a closer look

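In 100 tests of a member in PRMT5KO or WDR77KO (6 libraries each), 14 found the highest or lowest library far from the other 5, by a gap large against the whole range. Chance alone gives this in about 1 in 20 groups. For 10 of the 14 that library was sgWDR77-1 replicate 3, the highest of WDR77KO: IFIT5 at 54.4 CPM, OAS2 at 157, MX1 at 239, MX2 at 40.9, RSAD2 at 33.9, CMPK2 at 21.9, STAT2 at 156, IRF7 at 13.3, IFI44L at 253 and DDX60L at 95.8 CPM. Members are not independent of each other, since each library gives a value to all of them. GBP6 was highest at 1.02 CPM in sgPRMT5-2 replicate 3, where the other PRMT5KO libraries had at most 0.171. SP110 was lowest at 28.4 CPM in sgPRMT5-1 replicate 3. XAF1 was highest at 0.764 CPM in sgPRMT5-1 replicate 1 among PRMT5KO, and lowest at 0.36 CPM in sgWDR77-2 replicate 3 among WDR77KO, on few reads in every library.

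The knockouts differed from each other by limma voom in 39 members, and the guides of PRMT5 in 36. What sets sgWDR77-1 replicate 3 apart, and what sets the guides of PRMT5 apart, was not tested.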

How the results depend on the processing

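No call turned its direction under any alternative. A minimum absolute log2 fold change of 1 left 15 of 39 members called in PRMT5KO against WDR77KO, 6 of 18 in PRMT5KO against sgNeg, 4 of 9 in WDR77KO against sgNeg, 1 of 6 in sgPRMT5-1, 12 of 39 in sgPRMT5-2, 2 of 10 in sgWDR77-1, 4 of 16 in sgWDR77-2 and 8 of 36 between the PRMT5 guides, since this alternative only removes calls. With all 15 libraries in a single fit, 19 members were called in WDR77KO against sgNeg, 3 in sgPRMT5-1, 19 in sgWDR77-1, 19 between the PRMT5 guides and 4 between the WDR77 guides. In the same order this fit called 8.43%, 2.97%, 9.35%, 7.79% and 2.42% of all genes. The main fits called 3.39%, 3.78%, 2.71%, 19.24% and 0.121%. With the guides as separate groups, 35 were called in PRMT5KO against sgNeg, with 30.9% of all genes called in place of 17.04%. Library totals alone gave 6 in sgWDR77-1, with 2.39% of all genes called in place of 2.71%. No filter on low counts gave 2 between the WDR77 guides, with 0.488% of all genes called in place of 0.121%. The cause of these changes was not tested.

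Leaving out 1 library gave 29 to 41 members in PRMT5KO against WDR77KO, 2 to 24 in PRMT5KO against sgNeg, 2 to 17 in WDR77KO against sgNeg, 1 to 7 in sgPRMT5-1, 33 to 40 in sgPRMT5-2, 0 to 24 in sgWDR77-1 (limma voom; at its lowest 17 and 18 passed an unadjusted p under 0.05, and limma-trend on all libraries called 11), 10 to 18 in sgWDR77-2, 28 to 38 between the PRMT5 guides and 0 to 3 between the WDR77 guides, where 11 passed unadjusted on all libraries and limma-trend called 0. Of the members called, 29 of 39, 2 of 18, 1 of 9, 1 of 6, 32 of 39, 0 of 10, 9 of 16 and 19 of 36 kept their call under every alternative in which they were tested but the minimum fold, in the order of the first list here; GBP6, among the 29, was under the minimum mean count of 10.

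Replicate numbers were tried as a block, a pairing of libraries across conditions. Over 30 pairs of libraries with the same number the correlation of deviations from the condition mean, across genes, had a median of -0.00415, and 4 of 15 libraries were most alike to their own number, so the numbers were not used as pairs. With the block the counts were 37 in PRMT5KO against WDR77KO, 14 in PRMT5KO against sgNeg, 7 in WDR77KO against sgNeg, 13 in sgPRMT5-1, 40 in sgPRMT5-2, 11 in sgWDR77-1, 12 in sgWDR77-2 and 37 between the PRMT5 guides. Of the 13 in sgPRMT5-1, 11 were lower and 2 higher. In the same order the block called 11%, 13.08%, 2.30%, 10.84%, 40.48%, 3.04%, 2.71% and 21.58% of all genes. The main fits called 14.01%, 17.04%, 3.39%, 3.78%, 40.17%, 2.71%, 4.97% and 19.24%. In the pooled comparisons, among the genes named above, the block ended the calls of IFIT3, IFIT5 and IFNGR1 between the knockouts (limma voom adjusted p 0.0522 to 0.0629). Against sgNeg it ended those of UBE2L6, STAT2, IRF1, IFI44L, PIAS1, TBK1, PSMB8 and CD274 in PRMT5KO (limma voom adjusted p 0.0503 to 0.0755). In WDR77KO against sgNeg it ended those of OAS3, GBP1 and SP100 (limma voom adjusted p 0.0619 to 0.0925). The edgeR and DESeq2 packages and their tests were not run. With 3 libraries in sgNeg, many calls against it end when a single control library is left out. Members with few reads, GBP6 and XAF1 above all, have imprecise folds at 5146711 to 6730428 reads per library.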
